A study of Canis lupus familiaris with 36 samples.

Results

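The 9 mature miRNAs cfa-miR-106b, cfa-miR-93, cfa-miR-25, cfa-miR-106a, cfa-miR-18b, cfa-miR-20b, cfa-miR-363, cfa-miR-32 and cfa-miR-92b, written below without the prefix, are the paralogs of the miR-17-92 cluster, and they were taken by name from the 453 mature miRNAs listed in the cardiac count table. Small RNA was sequenced from formalin-fixed, paraffin-embedded (FFPE) heart tissue of 6 dogs with cardiac hemangiosarcoma (HSA), a malignant tumor of endothelial cells, and 6 control dogs, which died of non-neoplastic causes and are called healthy in the sample titles. The labels of the cardiac samples give no age, breed or genotype. Per the study, its dogs with HSA were older than its controls, and earlier chemotherapy was no reason for exclusion. Effects of age or treatment thus cannot be told apart from those of HSA here. RNA was extracted from tissue sections, and the study's methods describe no dissection, so a library can hold tumor, heart muscle and blood, and fewer cells of a type cannot be told apart from less RNA per cell. The title and the treatment field of each cardiac sample name opposite conditions, and the title was used.

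MiRNAs of this family repress messenger RNAs that pair with their seed, a short stretch near the start of the molecule, so that miRNAs with the same seed share many targets. MiR-106b, miR-93, miR-106a and miR-20b have the seed of miR-17 and miR-20a, which act on cell cycle brakes such as CDKN1A. MiR-18b pairs with miR-18a, and miR-25, miR-32, miR-92b and miR-363 share the seed of miR-92a, a group known to repress the pro-apoptotic BCL2L11. In the RefSeq gene table, which describes the dog assembly UU_Cfam_GSD_1.0, the genes of miR-106b, miR-93 and miR-25 are neighbours inside MCM7, a component of the helicase that opens DNA for replication. The genes of miR-106a, miR-18b, miR-20b and miR-363 are neighbours of each other and of second copies of miR-19b and miR-92a, in a cluster that is X-linked in mammals. MiR-32 lies alone within TMEM245, and miR-92b has no miRNA neighbour.

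The table lists counts by mature miRNA and precursor, and for miR-106a this decided what was measured. Of the counts named miR-106a, 2.66% were on its own precursor, cfa-mir-106a. The others were on cfa-mir-17, the precursor of miR-17 in the miR-17-92 cluster. By the rule of taking the entry with the highest total, the values of miR-106a below are those of cfa-mir-17 and are no measure of the X-linked cluster. The entry of cfa-mir-106a is given beside them. The entry named miR-17 held 278 counts over the 12 libraries against 6588 for the miR-106a entry of the same precursor, and the table does not name the arm of either. MiR-18a and miR-18b, and miR-20a and miR-20b, are near-identical as well, so reads may have been divided between them.

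After merging identical entries, the libraries held 6999830 to 11668822 counts in control and 2018959 to 8999025 in HSA. Levels are CPM, counts scaled to the library total, after correction by edgeR's TMM factors for composition. The factors were 0.769 to 0.889 for control and 0.948 to 1.97 for HSA. Reads per molecule of a mature miRNA do not increase with its length, so no scaling by length was made. Ligation and PCR can still favour some miRNAs, and comparisons of levels between miRNAs carry that error. The summed level of 8 muscle miRNAs was 189921 to 271362 CPM in control and 942 to 233009 CPM in HSA, with the lowest value in HSA replicate 3, which thus had little of the muscle signal of the heart. None of the 8 was called higher or lower in HSA by the test described below. The summed level of 4 myeloid and lymphoid miRNAs was 289 to 424 CPM in control and 578 to 3555 CPM in HSA. All 4 were called higher, as were 18.7% of all 225 tested miRNAs. Of 3 erythroid miRNAs 1 was called higher, with sums of 20867 to 29994 CPM in control and 5709 to 47480 CPM in HSA, and miR-126, the endothelial miRNA, was not called, at 2371 to 4213 CPM and 944 to 4295 CPM. No listed marker was at 0 in every library, and the part of these cells in the results below was not tested.

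In control heart the 9 miRNAs covered a wide range of levels. MiR-25 had the highest control mean, 1268 ± 134 CPM (SD, n = 6), followed by miR-93 with 512 ± 50.3 CPM. MiR-106b with 118 ± 14.1 CPM and miR-363 with 114 ± 16.2 CPM did not differ beyond their spread, and the miR-106a entry of cfa-mir-17 had 62.0 ± 6.77 CPM. The other 4 were rare, with 3.49 ± 2.09 CPM for miR-32, 3.30 ± 1.12 CPM for miR-20b, 2.14 ± 1.55 CPM for miR-92b and 1.19 ± 1.20 CPM for miR-18b, values that overlap between neighbours. The 4 rare miRNAs had 0 to 63 counts in a control library, while those of the miR-106b-25 cluster had at least 692. Among the 225 miRNAs tested, miR-25 ranked 52 by mean level and miR-18b 223.

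To learn which paralogs were altered in cardiac HSA, their counts were compared with control by edgeR's quasi-likelihood test, fitted to all 244 entries that passed the filter on low counts. All 9 passed it. Differential expression was called where the adjusted p (Benjamini-Hochberg, over all entries) was under 0.01 and the level differed by 1 or more on the log2 scale. Standard errors are written SE. Of the 9, 2 were called, miR-106b and miR-92b, both higher in HSA. This is 22.2% of them. Of all 225 tested miRNAs, 25.8% were called, 18.7% higher and 7.11% lower in HSA, so the share of the 9 lay near the background. All 9 log2 fold changes were positive, as were 63.1% of all tested, and 6 of the 9 had an adjusted p under 0.05 with a higher level in HSA, against 28.9% of all. Their median log2 fold change was 1.09, and that of all tested miRNAs was 0.34. For 4 of the 9, all 6 HSA values lay above the 6 control values, which held for 15.1% of all tested miRNAs, and 25.8% were without overlap in either direction.

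**Figure D1:**
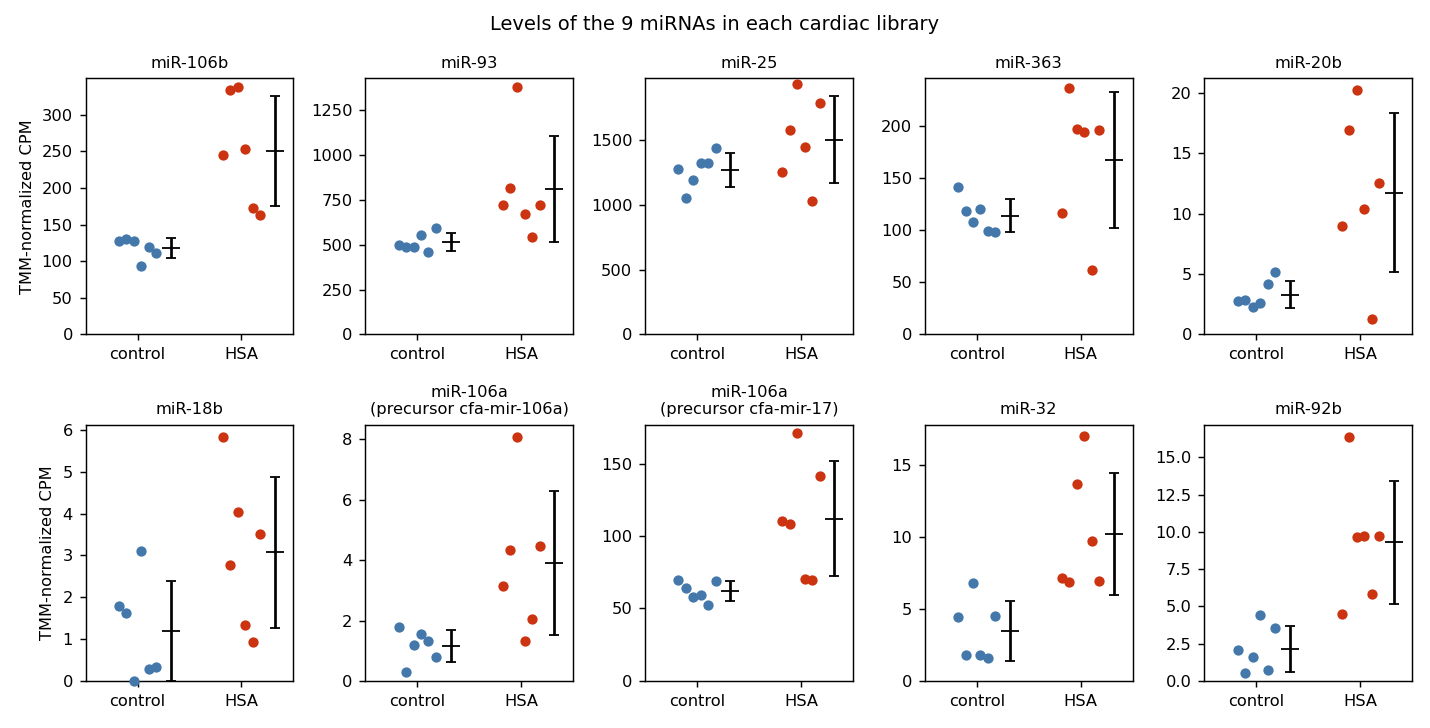
TMM-normalized CPM of the 9 miRNAs in each cardiac library, with miR-106a shown for both precursors. Blue points are the 6 control libraries, red points the 6 HSA libraries in the order of their replicate number, and bars are the mean ± SD, each panel with its own linear axis from 0. The groups are apart for miR-106b, miR-32, miR-92b and, narrowly, the cfa-mir-17 entry of miR-106a. HSA replicate 5 falls below every control library for miR-20b, miR-363 and, narrowly, miR-25.

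Of the 3 miRNAs of the miR-106b-25 cluster, whose genes are neighbours in MCM7, miR-106b was called and miR-93 and miR-25 were not. MiR-106b, an inhibitor of cell cycle brakes, had 92.9 to 129.9 CPM in control (median 123.3) and 163.5 to 337.3 CPM in HSA (median 249.3). Every HSA library was above every control library, with HSA replicates 2 and 3 the highest and replicates 5 and 6 the lowest. The log2 fold change was 1.09 (SE 0.21, adjusted p = 0.0023), a 2.13-fold rise. Close to the threshold in size, the call was lost without HSA replicate 1, 2, 3 or 4, with log2 fold changes of 0.86, 0.87, 0.98 and 0.85 and adjusted p of 0.0189, 0.0039, 0.0041 and 0.0224 in that order. It was lost as well with near-identical miRNAs summed (0.90, adjusted p = 0.00817).

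MiR-93, which has the same seed as miR-106b, had 456.8 to 592.5 CPM in control (median 492.5) and 542.5 to 1378 CPM in HSA (median 722.0). In 5 of the 6 HSA libraries it was above every control library, and HSA replicate 3 stood far above the others. Its log2 fold change of 0.66 (SE 0.20, adjusted p = 0.0205) was not called. Without HSA replicate 3 it was 0.44 (adjusted p = 0.0179), without HSA replicate 1 it was 0.46 (adjusted p = 0.174), and without HSA replicate 4 it was 0.48 (adjusted p = 0.15).

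MiR-25, known in heart muscle as a repressor of the calcium pump SERCA2a, had 1051 to 1440 CPM in control (median 1300.1) and 1029 to 1929 CPM in HSA (median 1509). The groups overlapped, with 4 HSA libraries above every control library and HSA replicate 5 below every control library. The log2 fold change was 0.24 (SE 0.16, adjusted p = 0.218), below the median of all tested miRNAs.

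Of the miR-106a-363 cluster, none of the entries of miR-363, miR-20b, miR-18b and miR-106a was called, and they were uneven in level. The miR-19b and miR-92a of this cluster are given below with the miR-17-92 cluster. MiR-363, from the end of the cluster and with the seed of miR-92a, had 98.4 to 141.2 CPM in control (median 112.8) and 61.5 to 236.8 CPM in HSA (median 195.5). It was above every control library in 4 HSA libraries, while replicate 1 lay within the control range and replicate 5 below it. The log2 fold change was 0.55 (SE 0.29, adjusted p = 0.132), and was not called. It was 0.71 without HSA replicate 5 (adjusted p = 0.0117), 0.33 without HSA replicate 2 (adjusted p = 0.362) and 0.34 without HSA replicate 4 (adjusted p = 0.47). Of the summed level of miR-363, miR-20b, miR-18b and the cfa-mir-106a entry, miR-363 made up 94.0 to 96.9% in control and 85.9 to 93.7% in HSA.

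MiR-20b, with the seed of miR-17, had 2.26 to 5.14 CPM in control (median 2.81) and 1.31 to 20.2 CPM in HSA (median 11.5). In 5 of the 6 HSA libraries it was above every control library, and in HSA replicate 5, with 7 counts, it was below every control library. The log2 fold change was 1.83 (SE 0.51, adjusted p = 0.011), a size above the threshold with an adjusted p just outside it. Without HSA replicate 5 it was 2.05 (adjusted p = 0.00105), and called.

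MiR-18b had the fewest counts of the 9, from 0 to 24 in a control library and from 5 to 30 in an HSA library. It had 0 to 3.11 CPM in control (median 0.976) and 0.937 to 5.83 CPM in HSA (median 3.14). Control replicate 3 had no read, which allows a level of up to 0.323 CPM at a limit of 3 counts, and 3 HSA libraries were above every control library. The log2 fold change of 1.32 (SE 0.80, adjusted p = 0.192) was not called, and its SE was the largest of the 9. When miR-18a and miR-18b were summed as 1 miRNA, with the other near-identical miRNAs, the log2 fold change was 1.35 (adjusted p = 0.00412), with 1528 counts of miR-18a and 149 of miR-18b in it.

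The entry of miR-106a on its own precursor had 0.306 to 1.80 CPM in control (median 1.25) and 1.33 to 8.09 CPM in HSA (median 3.73), from 3 to 39 counts. In 5 of the 6 HSA libraries it was above every control library, with HSA replicate 4 inside the control range. Its log2 fold change was 1.74 (SE 0.50, adjusted p = 0.013), which was not called with TMM factors. The entry of cfa-mir-17 had 52.3 to 69.5 CPM in control (median 61.6) and 69.7 to 170.8 CPM in HSA (median 109.4). Its groups did not overlap, but HSA replicates 4 and 5 lay next to the highest control value. Its log2 fold change of 0.85 (SE 0.24, adjusted p = 0.0133) was below the threshold in size and just outside it in adjusted p.

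The single miRNAs miR-32 and miR-92b were both rare, and both have the seed of miR-25. MiR-92b had 0.509 to 4.40 CPM in control (median 1.84) and 4.48 to 16.4 CPM in HSA (median 9.69). Every HSA library was above every control library, HSA replicate 2 was the highest, and HSA replicate 1 came within reach of control replicate 4. The log2 fold change was 2.12 (SE 0.53, adjusted p = 0.00709), a 4.35-fold rise, from 5 to 34 counts in control and 10 to 148 in HSA. The call held without control replicate 4 or HSA replicate 5 and was lost without any other library, with adjusted p of up to 0.026 and log2 fold changes of 1.80 or more. It was lost too with no filter beyond 1 read (2.08, adjusted p = 0.0141) and with near-identical miRNAs summed (1.96, adjusted p = 0.0141).

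MiR-32 had 1.60 to 6.79 CPM in control (median 3.13) and 6.87 to 17.0 CPM in HSA (median 8.46). The groups did not overlap, but HSA replicate 2 was next to control replicate 3. Its log2 fold change was 1.54 (SE 0.44, adjusted p = 0.0127), which was not called. With 1 library left out it ran from 1.08 without HSA replicate 4 (adjusted p = 0.0616) to 1.84 without control replicate 3 (adjusted p = 0.00854), the 1 fit of these in which it was called.

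The number of called paralogs stayed at 2, miR-106b and miR-92b, with median-of-ratios factors, upper quartile factors and TMM factors set without the muscle miRNAs, but not with library size only or with another tool. With counts scaled by library size only, the median over the 225 miRNAs rose from 0.34 to 0.97 on the log2 scale, and 68 miRNAs were called higher and 5 lower, against 42 and 16 with TMM. MiR-106b, miR-93, miR-106a, miR-20b, miR-32 and miR-92b were then called, which is 66.7% of the 9 against 30.2% of all tested miRNAs called higher. MiR-25, with 0.84, lay under the median of all miRNAs in that scaling too, and miR-92b had 2.80. DESeq2, the tool of the study's methods, called miR-106b, miR-20b, miR-32 and miR-92b, all higher in HSA, which is 44.4% of the 9 against 17.3% called higher among all miRNAs with an adjusted p. The cfa-mir-106a entry, not among these counts, was called with DESeq2 (log2 fold change 1.67, adjusted p = 0.00798) and with library size only (2.34, adjusted p = 0.00305). Limma on the deposited CPM called it too (1.43, adjusted p = 0.00919). With median-of-ratios factors, upper quartile factors and TMM factors set without the muscle miRNAs it was not called.

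**Figure D2:**
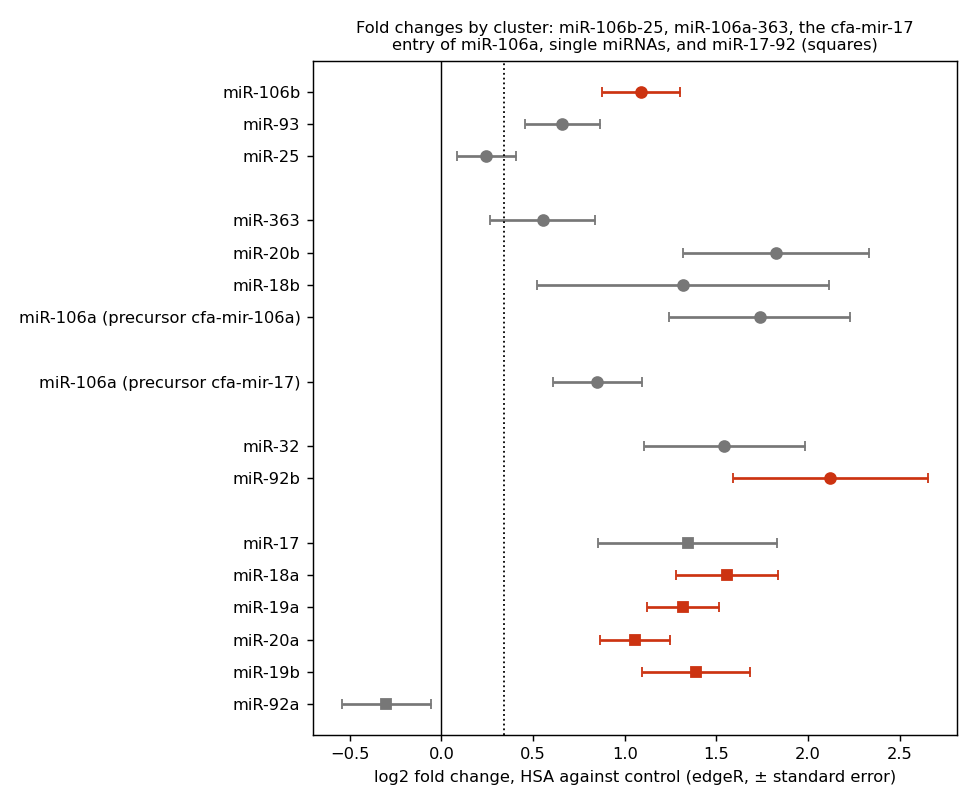
Log2 fold change of HSA against control, with its standard error, for the 9 miRNAs by cluster (circles), miR-106a for both precursors, and the miR-17-92 cluster (squares). Red marks called miRNAs, the solid line is 0 and the dotted line the median of all tested miRNAs, 0.34. MiR-25, miR-363 and miR-92a are the 3 nearest to or below the median, while miR-92b has the highest value, 2.12.

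The miR-17-92 cluster itself was set beside its paralogs as a list of 6 miRNAs. Against 18.7% called higher and 7.11% lower among all tested miRNAs, 4 of the 6 were called higher and none lower. These were miR-18a at a log2 fold change 1.56 (adjusted p = 0.00156), miR-19a at 1.32 (adjusted p = 0.000935), miR-20a at 1.06 (adjusted p = 0.00156) and miR-19b at 1.39 (adjusted p = 0.00363). MiR-17 had a log2 fold change of 1.34 (adjusted p = 0.0404) from few counts. MiR-92a, the most abundant of all with 4124 ± 637 CPM (SD, n = 6) in control and 3350 ± 1297 CPM in HSA, had a log2 fold change of -0.30 (SE 0.24, adjusted p = 0.316), which turned to 0.29 with library size only and to 0.24 with limma on the deposited CPM. The call of miR-20a, near the threshold in size, was lost with DESeq2 (0.99), median-of-ratios factors (0.99) and TMM factors set without the muscle miRNAs (0.97). MiR-92a and miR-19b each have a precursor in this cluster and another in the X-linked cluster, with the same or nearly the same counts, so their reads belong to neither cluster alone. The values of miR-92a, here and in the ratios and shares below, are those of the entry of cfa-mir-92a-2, the X-linked precursor. Those of miR-19b are of cfa-mir-19b-1, the precursor in the miR-17-92 cluster.

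To compare the clusters with each other without a choice of scaling, log2 ratios of 12 pairs of miRNAs were taken within each library, with 0.5 counts added to each. HSA and control were compared by a two-sided exact permutation test of 6 against 6, whose smallest possible p is 0.00216, and p-values were adjusted over the 12 pairs. An adjusted p under 0.05 was reached by 5 pairs, and each of these holds miR-25. MiR-25 was the member most often used in the choice of pairs, and miR-363 to miR-25 holds it too and did not pass. The 5 pairs are thus not independent of each other. With 1 library left out, when 5 are compared with 6, most of these pairs no longer passed. The smallest possible p is then larger, and a pair that reaches it alone has an adjusted p of 0.0519 and cannot pass. The loss of these calls is therefore in part set by the test and is no measure of how stable the differences are. The adjusted p from the exact test stayed under 0.05 without HSA replicate 6 for miR-106b and for miR-93 to miR-25, without control replicate 3 or HSA replicate 6 for miR-32 to miR-25, without control replicate 3, HSA replicate 4 or HSA replicate 6 for miR-92b to miR-25, and without HSA replicate 4 for miR-25 to miR-92a. Without any other single library it was 0.0519 to 0.0831, while the 5 differences stayed positive.

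Within the miR-106b-25 cluster, the log2 ratio of miR-106b to miR-25 was -3.43 ± 0.30 (SD, n = 6) in control and -2.61 ± 0.43 in HSA, a difference of 0.82 (SE 0.21, exact p = 0.00866, adjusted p = 0.0416). It was above every control library in 5 of the 6 HSA libraries, and HSA replicate 6, at -3.45, lay in the control range. The ratio of miR-93 to miR-25 rose by 0.38 (SE 0.13, exact p = 0.0173, adjusted p = 0.0416), also with 5 of 6 HSA libraries above control. For miR-106b to miR-93, which share a seed, the difference was 0.44 (SE 0.18, exact p = 0.039, adjusted p = 0.0779), which did not pass.

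Among miRNAs with the seed of miR-25, the ratio of miR-92b to miR-25 rose from -9.52 ± 1.08 (SD, n = 6) to -7.40 ± 0.49, a difference of 2.12 (SE 0.48, exact p = 0.00216, adjusted p = 0.026), with no overlap of the groups. The ratio of miR-32 to miR-25 rose by 1.44 (SE 0.43, exact p = 0.0108, adjusted p = 0.0416) and was above every control library in 4 of 6 HSA libraries. The ratio of miR-363 to miR-25 differed by 0.21 (SE 0.22, exact p = 0.37, adjusted p = 0.437). MiR-25 rose relative to miR-92a, by 0.60 (SE 0.20, exact p = 0.0173, adjusted p = 0.0416), in 5 of 6 HSA libraries above control.

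The remaining pairs did not pass. The X-linked miR-20b differed relative to miR-106b by 0.46 (SE 0.51, adjusted p = 0.437 from the exact test) and relative to miR-20a by 0.50 (SE 0.53, adjusted p = 0.437), both with HSA replicate 5 far below the other libraries. With 1 library left out, these differences ran from 0.26 to 0.91 and from 0.25 to 0.95. Both were highest without HSA replicate 5, each with an adjusted p of 0.0519 from the exact test. MiR-18b differed relative to miR-18a by 0.51 (SE 0.96, adjusted p = 0.662), where control replicate 3 had no read of miR-18b. MiR-106a from cfa-mir-17 differed relative to miR-106b by -0.26 (SE 0.25, adjusted p = 0.437), and miR-93 relative to miR-17 by -0.94 (SE 0.51, adjusted p = 0.178). The miR-17 entry held 278 counts and its arm is not named, so this last pair may not compare miRNAs of the same seed. The SEs of these pairs leave room for differences of the size of the smallest that passed, 0.38 for miR-93 to miR-25, but not in each pair for the largest.

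**Figure D3:**
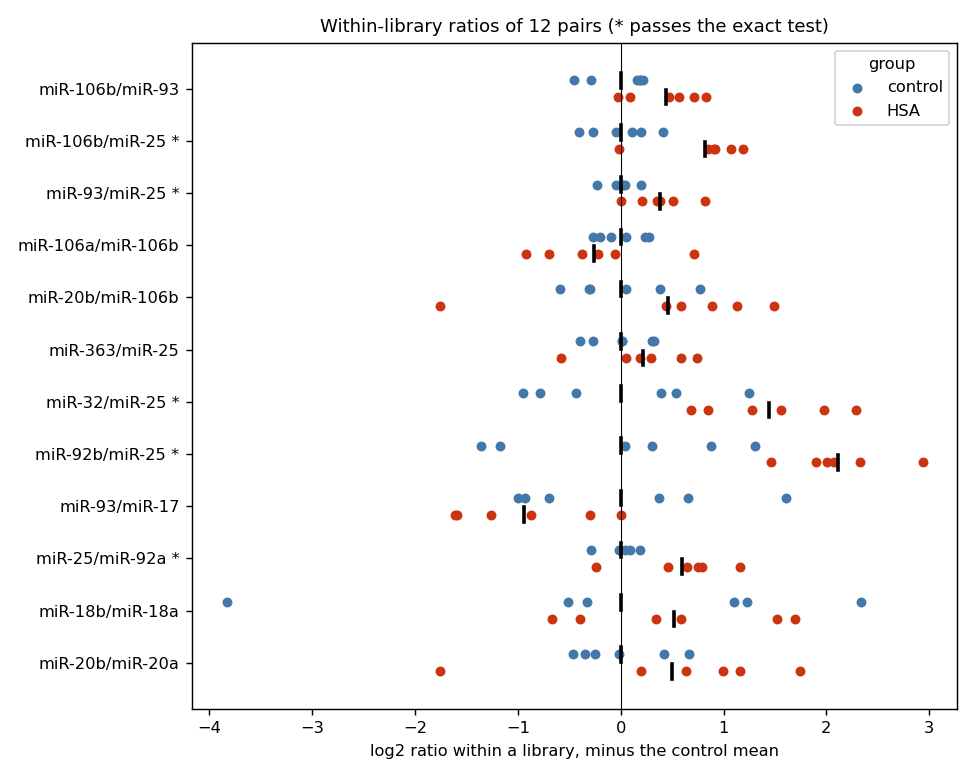
Log2 ratio of 12 pairs of miRNAs within each library, drawn as the difference from the control mean of the pair. Blue points are control libraries, red points HSA libraries, black bars group means, and an asterisk marks an adjusted p under 0.05 in the exact permutation test. The 5 marked pairs all hold miR-25, the member most often used in the choice of pairs, as does the unmarked miR-363 to miR-25. For miR-92b to miR-25 the groups are apart.

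The makeup of the seed groups was described by the share of each miRNA in the counts of its group. In the group of miR-17, miR-93 was the main member with 58.4 ± 2.94% (SD, n = 6) in control and 51.3 ± 4.13% in HSA. MiR-106b had 13.5 ± 2.00% in control and 16.2 ± 3.25% in HSA, miR-106a from cfa-mir-17 had 7.07 ± 0.51% and 7.20 ± 1.80%, and miR-20b had 0.376 ± 0.12% and 0.711 ± 0.33%. The summed level of this group was 811 to 964 CPM in control and 1052 to 2414 CPM in HSA, with every HSA library above every control library.

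In the group of miR-25, miR-92a was the main member with 74.7 ± 2.09% (SD, n = 6) in control and 65.3 ± 6.85% in HSA. MiR-25 had 23.1 ± 1.87% in control and 31.0 ± 6.30% in HSA, and miR-363 had 2.11 ± 0.44% and 3.31 ± 1.05%. The rarest members were miR-32, which had 0.0657 ± 0.043% in control and 0.205 ± 0.058% in HSA, and miR-92b had 0.0386 ± 0.027% and 0.186 ± 0.076%. The summed level of the group was 4598 to 6658 CPM in control and 3189 to 7173 CPM in HSA, and 1 HSA library was above every control library.

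**Figure D4:**
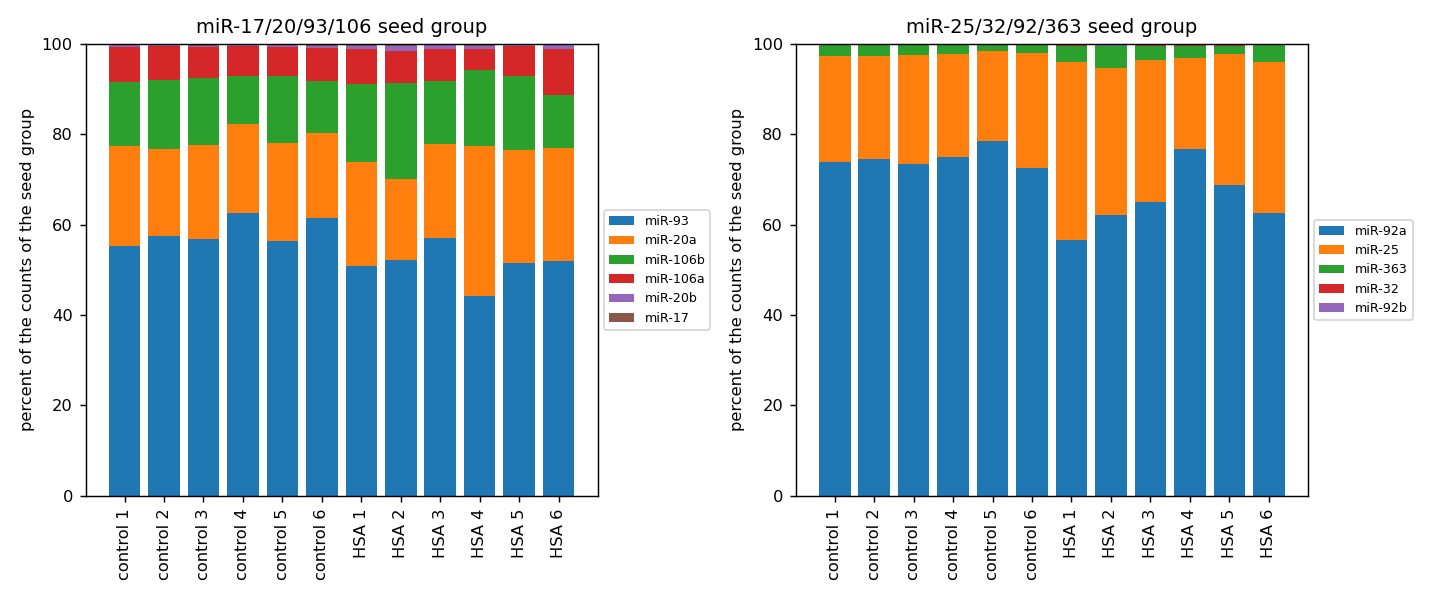
Share of each miRNA in the counts of its seed group, in percent, for the 6 control and 6 HSA libraries. Bars add up to 100 percent, and miR-106a is the entry of cfa-mir-17. MiR-93 and miR-92a are the main members of their groups in every library, and the shares of miR-32 and miR-92b, under 0.4% each, are too thin to be seen.

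For 6 of the 9 miRNAs the HSA libraries varied more among themselves than the control libraries did, and for the rare miR-18b, miR-32 and miR-92b they varied less. The coefficient of variation of miR-106b was 11.9% in control and 30.0% in HSA, that of miR-93 was 9.83% and 36.2%, and that of miR-25 was 10.6% and 22.2%, while that of miR-92b was 72.2% and 44.6%. Among the HSA libraries, replicate 3 had the highest level of 5 of the 9 miRNAs and replicate 5 the lowest level of 6. Replicate 3 had the lowest summed level of muscle miRNAs, 942 CPM, and replicate 5 had 94724 CPM. Replicates 1 and 6 had 190256 and 233009 CPM of muscle miRNAs, within the control range, and 578 and 869 CPM of myeloid and lymphoid miRNAs, above the control maximum of 424 CPM. Their levels of miR-106b were 245.3 and 163.5 CPM. The part of either cell type in these levels was not tested.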

How the data were processed

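Small RNA of FFPE heart tissue was measured in 12 libraries, 1 per dog. Splenic samples of the series were not analysed here. For these libraries the labels give a QIAseq kit and the study's methods a NEXTflex kit. Per these methods, the authors used Cutadapt for trimming, Bowtie for alignment to CanFam3.1 and HTSeq for counting, with miRBase names. The authors deposited raw counts for 517 combinations of mature miRNA and precursor, and the same values as CPM over all entries, without a composition factor. The CPM were recomputed and differed by at most 0.00499. Where a mature miRNA had entries of equal counts, these became 1 entry, which left 474, and a miRNA with several entries was read from the one with the highest total.

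Counts were fitted in R 4.3.3 with edgeR 4.0.16 (TMM, default count filter by condition, quasi-likelihood F test), with each SE taken as the size of the change divided by the root of F. Alternatives used DESeq2 1.42.0, limma 3.58.1 on log2 of the deposited CPM plus 1, other factors, filters, thresholds and entries, thinning to 2018959 counts, a replicate term, and each library left out. Ratios were tested with scipy 1.17.1 by exact permutation. The tests were tried on simulated data. The members, pairs and lists were chosen with earlier results of these data known. Named miRNAs are the 9 members, the miR-17-92 cluster, and for each member with at least 10 counts in every library the 3 miRNAs most alike. Seed groups follow family names, since no sequence table was used, where the design had foreseen bases 2 to 8 of the mature sequences. Replicate numbers did not pair the dogs. Intervals and limits of counts cover counting error only, as PCR reads are not independent molecules. The RefSeq gene table, of another assembly, gave neighbours for all 17 precursor genes looked up and no coordinates.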

Additional observations from a re-analysis of the deposited data

Results flagged for a closer look

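Of 44 groups of 6 libraries tested for a library far from the rest by Dixon's criterion, 3 had one, and chance gives about 1 in 20. MiR-93 was at 1378 CPM in HSA replicate 3, with the next HSA library at 816 CPM. The log2 ratio of miR-106b to miR-25 was -3.45 in HSA replicate 6, while the next lowest HSA library was at -2.58. The log2 ratio of miR-20b to miR-106b was -6.94 in HSA replicate 5, from 7 counts of miR-20b, with the next lowest at -4.74.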

How the results depend on the processing

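The log2 fold changes of the 9 miRNAs stayed positive under every alternative that gave a value, but the number called, 2, did not hold. It was 4 with DESeq2 and with an adjusted p under 0.05 as threshold, 6 with library size only and 5 with limma on the deposited CPM. Over all tested miRNAs, 52 of 225 were called higher with the threshold of 0.05 and 49 of 320 with limma. The number called of the 9 was 1 with no filter beyond 1 read and with a mean of at least 10 CPM, which left 5 of the 9. With near-identical miRNAs summed it was 1 as well, and both miR-106b and miR-92b were lost. This 1 was the sum of miR-18a and miR-18b, mostly counts of miR-18a, and is no call of miR-18b alone. Thinned to the smallest library, 3 of the 7 tested were called, miR-106b, miR-106a and miR-32. Of all 198 miRNAs tested in that fit, 43 were called higher. The number called of the 9 was 0 to 3 with each library left out. It was 0 without HSA replicate 1, 2, 3 or 4, where edgeR gave 4, 6, 6 and 5 of the 9 an unadjusted p under 0.05. With miR-106a read from its own precursor, an alternative chosen after seeing the data, it was 2. The count over all miRNAs, 58, ran from 24 to 65 with each library left out. With the replicate number as a block, 0 of the 9 and 6 of all miRNAs were called by edgeR, and 6 of the 9 had an unadjusted p under 0.05. The numbers are shared labels, since same-numbered libraries had correlations of -0.279 to 0.0427 and none correlated best with its own number. With this pairing the ratio differences stayed at 0.82 for miR-106b to miR-25, 0.38 for miR-93 to miR-25, 1.44 for miR-32 to miR-25, 2.12 for miR-92b to miR-25 and 0.60 for miR-25 to miR-92a, each with an adjusted p of 0.125 from the exact sign-flip test, whose smallest unadjusted p is 0.0312. With each library left out, these 5 ran from 0.74 to 0.99, 0.29 to 0.46, 1.25 to 1.69, 1.85 to 2.38 and 0.48 to 0.76, with adjusted p of up to 0.0831 from the exact test, which has fewer arrangements at 5 against 6. The ratio of miR-18b to miR-18a, not called, ran from -0.25, without control replicate 3, to 0.98. The other causes were not tested. Depth limits miR-18b, miR-20b, miR-32, miR-92b and the cfa-mir-106a entry most, as 1 count was worth 0.102 to 0.161 CPM in control and 0.111 to 0.448 CPM in HSA.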

Other observations

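For each of the 6 miRNAs with at least 10 counts in every library, the miRNAs with the most similar pattern were sought among 171 others, by Pearson's r of the log2 level after subtracting each group's mean. These r are descriptions over 12 libraries that share their scaling factors. MiR-106b was most like miR-21 (r = 0.895), miR-15a (r = 0.878) and miR-660 (r = 0.871), and these stayed at 0.804 or more with any library left out. Its neighbour miR-93 was most like miR-122, a liver miRNA (r = 0.914), and miR-107 and miR-103 (both r = 0.866), which fell to 0.594, 0.272 and 0.272 without HSA replicate 3. MiR-25 was most like miR-93 (r = 0.754), miR-1306 (r = 0.746) and miR-363 (r = 0.725), the last falling to 0.380 without HSA replicate 5. Between miR-106b and miR-25, at both ends of the same cluster, r was 0.266, and between miR-106b and miR-93 it was 0.562.

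MiR-363 was most like miR-144 (r = 0.839), an erythroid miRNA, miR-223 (r = 0.757), a myeloid one, and miR-25, and without HSA replicate 5 the first was 0.436 and the second 0.544. The cfa-mir-17 entry of miR-106a was most like miR-93 (r = 0.791), miR-122 (r = 0.714) and miR-25 (r = 0.703). MiR-32 was most like miR-590 (r = 0.788), miR-505 (r = 0.684) and miR-15b (r = 0.682), and its r with the other 5 paralogs ran from -0.0436 to 0.242.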
